A study of Mus musculus with 4 samples.

Results

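The cells described here are Tbx3-positive heart muscle cells of the region that holds the atrioventricular node (AVN) and the His bundle. They were chosen by measured transcripts, counted as unique molecular identifiers (UMIs), in the library of that region. A member had at least 500 genes detected and a muscle score of at least 1.5, the score being the mean of ln(1 + UMIs per 10000) of Tnnt2, Myh6, Ttn, Actn2 and Ryr2. It also had at least 1 UMI of Tbx3 and at least 1 UMI of at least 1 of 6 other genes, Bmp2, Tbx2, Cpne5, Rspo3, Hcn4 and Cacna2d2. There were 82 such cells among the 2816 muscle-score cells of the AVN/His library (2.91%, exact binomial 95% interval 2.32 to 3.60%), and among 22805 barcodes in all 4 libraries. The other 2734 muscle-score cells of the library were the comparison. The names Tbx3-positive and AVN/His describe the rule and the dissected region. The data hold no position of a cell within that region.

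The AVN delays the impulse between atria and ventricles, and the His bundle carries it onward. In the mouse, T-box factors Tbx3 and Tbx2 are transcriptional repressors that hold the genes of working chamber muscle low in slowly conducting myocardium, where Bmp2 signaling lies upstream of Tbx2. Working muscle conducts fast through high-conductance connexins, whereas nodal cells use T-type and low-threshold calcium channels and the pacemaker channel Hcn4.

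The study profiled wild-type CD1 mouse hearts at embryonic day 16.5. It used 1 droplet-based single-cell library for each of 4 microdissected regions, the AVN/His region, the sinoatrial node (SAN) region, and the left and right ventricular regions that hold the bundle branches and Purkinje fibers. No treatment or engineered allele was given, and the number of hearts behind each library was not stated. With 1 library per region, values within a region carry counting error only, and fewer transcripts per cell and a different mix of cells cannot be told apart in a sum.

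The 4 libraries held 5010 to 6342 barcodes and 49328589 to 58029660 UMIs, and 352 to 654 barcodes per library fell below 500 genes. Tbx3-positive cells of the AVN/His region had a median of 12269.5 UMIs and 3474 genes, against 10823.5 UMIs and 2724.5 genes in the other muscle-score cells. The median share of mitochondrial UMIs was 8.67% in Tbx3-positive cells and 14.6% in the others. Some barcodes, 269 of them, occurred in more than 1 library, and 0 of these were among the 82 cells.

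Tbx3 itself was sparse. The 82 cells held 141 Tbx3 UMIs, with 1 UMI in 50 cells, 2 in 18, 3 in 7 and between 4 and 6 in the remaining 7 cells. Levels are given as CPM, the UMIs of a gene per 1000000 UMIs of all cells of a group together. Tbx3 stood at 128 in Tbx3-positive cells and 1.60 in the others, a gap that the rule itself set. Just inside the muscle threshold, 3 members had scores of 1.5 to under 1.75 (median 1.62), and just outside it 2 cells that met the other criteria had scores of 1.25 to under 1.5 (median 1.36). The Tbx3 threshold had no finer step than its 50 cells with a lone UMI, whose median depth was 11544 UMIs, against 14296 UMIs in the 32 cells with 2 or more. A further 41 muscle-score cells had Tbx3 but none of the 6 other genes, and 381 had at least 1 of the 6 without a Tbx3 UMI.

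The 6 companion genes were not shared evenly. Of the 82 cells, 17 had 1 of the 6, 18 had 2, 14 had 3, 19 had 4, 10 had 5 and 4 had all of them. Cpne5, which encodes a calcium-dependent phospholipid-binding copine, was the most frequent, with a UMI in 76.8% of Tbx3-positive cells and 5.01% of the others. Cacna2d2, an auxiliary subunit of voltage-gated calcium channels, was found in 70.7% of Tbx3-positive cells and 4.75% of the others. Bmp2, a secreted ligand of the bone morphogenetic protein family, was found in 51.2% of Tbx3-positive cells and 3.66% of the others, and Rspo3, a secreted amplifier of Wnt signaling, in 46.3% of Tbx3-positive cells and 6.04% of the others. The least frequent were Tbx2, at 29.3% of Tbx3-positive cells and 2.45% of the others, and Hcn4, at 24.4% of Tbx3-positive cells and 0.914% of the others. Free RNA can place a UMI in a cell that does not express the gene, so the 78 macrophage-like cells of the same library, with a median of 7106.5 UMIs, served as a background. They had Tbx3, Cacna2d2 and Hcn4 in 0 cells, which allows a share of up to 4.62% (exact binomial), and Bmp2 and Rspo3 in 5.13% each.

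Levels of the same genes are given for description only, as the rule used them. Summed CPM in Tbx3-positive cells and in the others stood at 287 and 10.8 for Cacna2d2, 256 and 7.78 for Bmp2, 217 and 8.96 for Cpne5 and 184 and 13.4 for Rspo3. Tbx2 had 28.2 CPM in Tbx3-positive cells and 2.55 CPM in the others and Hcn4 24.6 CPM in Tbx3-positive cells and 0.818 CPM in the others. The muscle genes of the rule were all abundant. Tnnt2, cardiac troponin T, had 7656 CPM in Tbx3-positive cells and 8895 CPM in the others, and Ttn, titin, had 2097 CPM in Tbx3-positive cells and 2518 CPM in the others. Actn2, sarcomeric alpha-actinin, had 734 CPM in Tbx3-positive cells and 725 CPM in the others, and Ryr2, the calcium release channel, 189 CPM in Tbx3-positive cells and 268 CPM in the others. Myh6, the alpha-myosin heavy chain, had 1842 CPM in Tbx3-positive cells and 489 CPM in the others.

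Gene models place the 7 nodal genes of the rule on 6 mouse chromosomes. In GRCm38.p6, Tbx3 (ENSMUSG00000018604) lies at chr5:119670669-119684724 on the plus strand. Cacna2d2 lies at chr9:107399612-107529343 and Hcn4 at chr9:58823412-58863175, both on the plus strand of the same chromosome. Bmp2 lies at chr2:133552159-133562885 and Tbx2 at chr11:85832551-85841948 on the plus strand, and Cpne5 at chr17:29155556-29238167 and Rspo3 at chr10:29452416-29535867 on the minus strand.

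**Figure D1:**
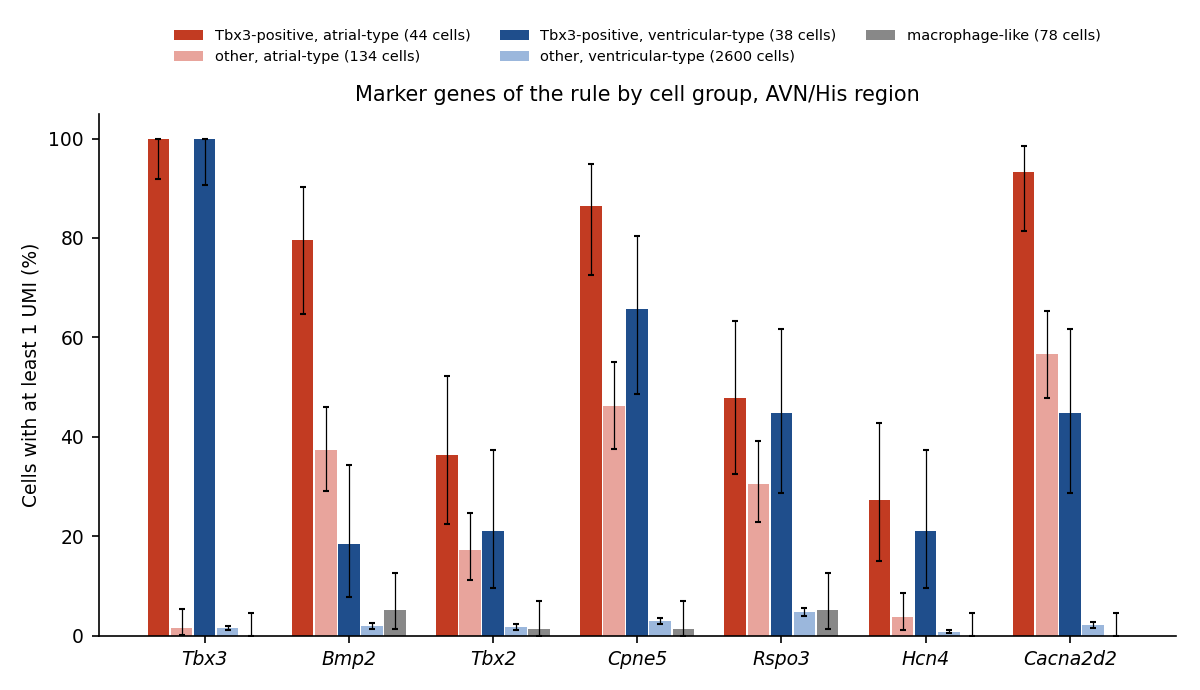
Percent of cells with at least 1 UMI (vertical axis) of Tbx3 and the 6 companion genes of the rule, for Tbx3-positive cells of atrial and ventricular type, the other muscle-score cells of each type, and macrophage-like cells of the AVN/His library. Bars are shares and error bars exact binomial 95% intervals for counting error. Bmp2 was found in 79.5% of atrial-type and 18.4% of ventricular-type Tbx3-positive cells, while Rspo3 was found in 47.7% and 44.7%.

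Tbx3-positive cells were of mixed chamber identity. The chamber share, the UMIs of Sln and Myl7 over those of Sln, Myl7 and Myl2, sets atrial genes (sarcolipin and the atrial regulatory myosin light chain) against the ventricular regulatory light chain. At a limit of 0.5, 44 of the 82 were of atrial type (53.7%, 95% interval 42.3 to 64.7%) and 38 of ventricular type. The other muscle-score cells split into 134 of atrial type (4.90%, 4.12 to 5.78%) and 2600 of ventricular type. A share between 0.2 and 0.9, where transcripts of both chambers were present, was found in 15 Tbx3-positive cells (18.3%, 10.6 to 28.4%) and 117 others (4.28%). Near the limit, at 0.4 to 0.6, were 7 Tbx3-positive cells (8.54%) and 33 others (1.21%). Gene comparisons within the AVN/His library were therefore made within each chamber type as well as over all cells.

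**Figure D2:**
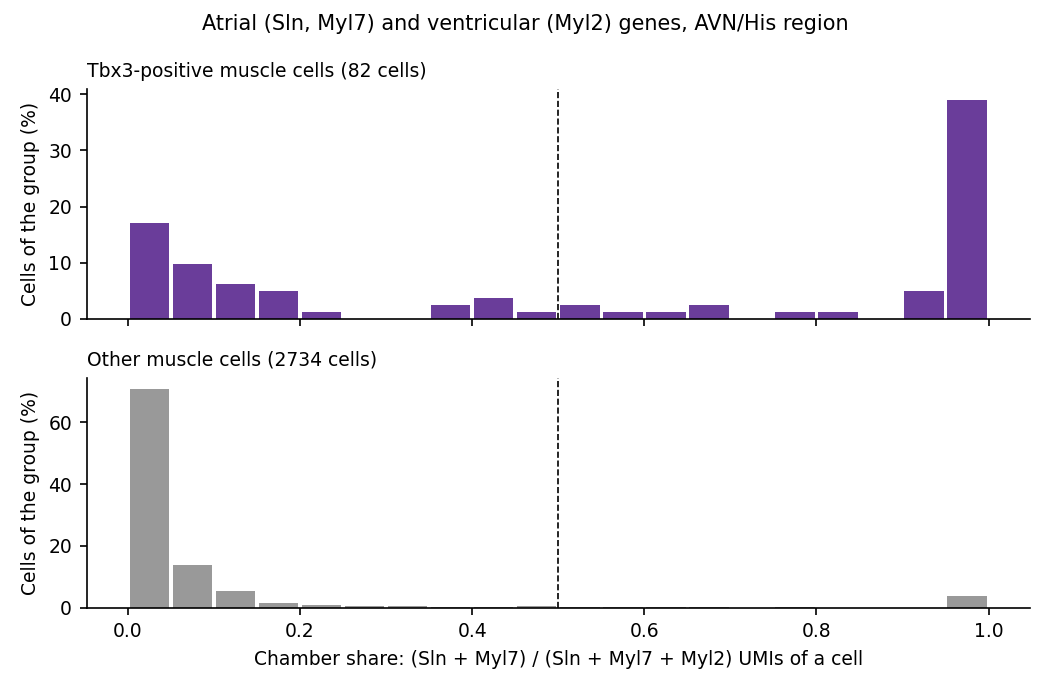
Distribution of the chamber share, (Sln + Myl7) / (Sln + Myl7 + Myl2) in UMIs, over 82 Tbx3-positive cells and 2734 other muscle-score cells of the AVN/His library. The vertical axis gives the percent of cells of each group and the dashed line marks 0.5, the limit between ventricular and atrial type. The Tbx3-positive cells were spread over both ends and the middle, while 92.0% of the others had a share under 0.2.

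Companion genes were more numerous in atrial-type members. Of the atrial-type members, 34 of 44 had 3 or more of the companion genes, against 13 of 38 ventricular-type members, and 14 ventricular-type but 3 atrial-type members had exactly 1. Bmp2 summed to 394 CPM in atrial-type and 102 CPM in ventricular-type Tbx3-positive cells, and Cacna2d2 to 392 and 170 CPM. Tbx3 had 130 and 127 CPM in the same groups. The atrial-type comparison cells also held these genes without Tbx3, as 56.7% of them had Cacna2d2, 46.3% Cpne5 and 37.3% Bmp2. Among ventricular-type comparison cells, the shares were 2.08%, 2.88% and 1.92%. The atrial-type contrast is thus set against muscle that itself carried much of the companion set, and the ventricular-type contrast against muscle that did not.

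Transcripts of other cell types were unequal between the groups and are given here for use beside the gene groups below. Among ventricular-type cells, at least 3 of 8 fibroblast markers were found in 9 of 38 Tbx3-positive cells (23.7%, 95% interval 11.4 to 40.2%) and in 7.58% of the others, with summed levels of 1075 CPM in Tbx3-positive cells and 370 CPM in the others. The 6 macrophage markers summed to 179 CPM in ventricular-type Tbx3-positive cells and 6.55 CPM in the others, with Ptprc at 0 in the Tbx3-positive cells. The 8 endothelial markers summed to 208 CPM in ventricular-type Tbx3-positive cells and 51.1 CPM in the others. A Scrublet doublet score of at least 0.2 was given to 5 of 38 ventricular-type Tbx3-positive cells (13.2%) and 3.31% of the others. Atrial-type cells were different. At least 3 fibroblast markers were found in 4.55% of Tbx3-positive cells and 4.48% of the others, the fibroblast list summed to 77.8 CPM in Tbx3-positive cells and 247 CPM in the others, the macrophage list to 1.73 CPM in Tbx3-positive cells, a single UMI, and 5.56 CPM in the others and the endothelial list to 86.4 CPM in Tbx3-positive cells and 70.2 CPM in the others. No atrial-type Tbx3-positive cell reached a doublet score of 0.2.

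The remaining lists were summed over all cells. Neural or Schwann markers summed to 9.11 CPM in Tbx3-positive cells and 8.60 CPM in the others, and Sox10, Fabp7, Th and Stmn2 were at 0 in the Tbx3-positive cells. Valve mesenchyme markers summed to 72.9 CPM in Tbx3-positive cells and 47.7 CPM in the others, epicardial markers to 12.8 CPM in Tbx3-positive cells and 9.81 CPM in the others and pericyte or smooth muscle markers to 277 CPM in Tbx3-positive cells and 171 CPM in the others, with Myh11 at 0. Erythroid markers, a common source of free RNA, summed to 609 CPM in Tbx3-positive cells and 2103 CPM in the others. At least 3 markers of a list were present in 1 of the 38 ventricular-type members for the macrophage list and in 1 for the endothelial list. The part of these transcripts in single gene results was not tested except where a value without such cells is given.

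Between the 2 groups of cells in 1 library no test was possible, and a gene was counted when its summed CPM differed by at least 2-fold. The log2 ratios have 0.5 counts added to each sum, and their 95% intervals are exact and cover counting error only. Entry required detection in 10% or more of the cells of at least one of the 2 groups. Over all cells, 1244 of 8379 genes (14.8%) were at least 2-fold higher in Tbx3-positive cells and 110 (1.31%) at least 2-fold lower. Within atrial type, 716 of 8413 (8.51%) were higher and 196 (2.33%) lower, and within ventricular type 1769 of 8685 (20.4%) were higher and 167 (1.92%) lower. The filter favored the smaller group. In the same order, 1451, 1175 and 1786 genes passed only through the Tbx3-positive cells. The filter itself made their detected share higher there, but not all of them were 2-fold higher in CPM. The median log2 ratio over all genes counted was 0.40, 0.20 and 0.45. With ratios centered on these medians the counts became 581 higher and 286 lower over all cells, 426 and 292 within atrial type, and 836 and 519 within ventricular type. Mitochondrial UMIs made up a median of 8.98% in ventricular-type Tbx3-positive cells and 15.0% in the others, and 8.58% in atrial-type Tbx3-positive cells and 9.01% in the others. Without these UMIs in the totals, 1463 genes were higher and 209 lower in ventricular type. Counts of list members below are to be read against these shares and medians, and no list count is a test. Some list counts leave out genes that passed only through Tbx3-positive cells. The shares above include such genes and do not match those counts, and a matching share over all genes is not given here.

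Of the 9 genes that Tbx3 or Tbx2 are known to hold low in the mouse, 0 were higher and 5 of 8 counted were lower in atrial-type Tbx3-positive cells, with a median log2 ratio of -1.57. In ventricular-type cells 1 was higher and 2 of 7 were lower (median -0.49), and over all cells 1 was higher and 3 of 7 lower (median -0.51). In the 32 cells with at least 2 Tbx3 UMIs, the atrial-type count was 6 lower of 7 (median -2.87) and the ventricular-type count 3 lower and 0 higher of 6 (median -1.40).

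Nppa, which encodes the atrial natriuretic peptide (chr4:148000722-148002079), had 881 CPM in atrial-type Tbx3-positive cells (95% interval 807 to 961) and 9047 CPM in atrial-type others (8893 to 9204), a log2 ratio of -3.36. Its UMIs were concentrated, as 393 of 510 sat in 1 Tbx3-positive cell (77.1%), and without the highest cell of each group the levels were 212 CPM in Tbx3-positive cells and 8339 CPM in the others. A UMI of Nppa was found in 31.8% of Tbx3-positive and 53.0% of the other atrial-type cells. Ventricular-type cells went the other way, with 252 CPM in Tbx3-positive cells and 164 CPM in the others (log2 ratio 0.63, 95% interval 0.36 to 0.87), but at 2 or more Tbx3 UMIs the ratio was -2.05. Over all cells Nppa had 584 CPM in Tbx3-positive cells and 582 CPM in the others.

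Nppb, the gene of the related B-type natriuretic peptide, had 104 CPM in atrial-type Tbx3-positive cells and 417 CPM in the others, and 54 of its 60 UMIs in the Tbx3-positive cells came from 1 cell. Without the highest cells, these levels were 10.9 CPM in Tbx3-positive cells and 359 CPM in the others. In ventricular-type cells Nppb had 53.9 CPM in Tbx3-positive cells and 238 CPM in the others (log2 ratio -2.11, 95% interval -2.73 to -1.61). It was lower in Tbx3-positive cells of both chamber types.

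Gja1 encodes connexin 43, the main gap junction protein of working ventricular muscle (chr10:56377330-56402513). In ventricular type it had 50.1 CPM in Tbx3-positive cells and 296 CPM in the others (log2 ratio -2.54, -3.18 to -2.01), with a UMI in 23.7% of Tbx3-positive cells and 79.0% of the others. In atrial type it had 32.8 CPM in Tbx3-positive cells and 48.0 CPM in the others (log2 ratio -0.52, -1.36 to 0.20), an interval that includes 0. Over all cells, Gja1 had 41.0 CPM in Tbx3-positive cells and 285 CPM in the others, with a UMI in 17.1% of Tbx3-positive cells and 76.4% of the others. Gja5, the gene of the fast atrial and Purkinje connexin 40, had 4 UMIs in 2 atrial-type Tbx3-positive cells and was found in 32 of the 134 others (6.91 CPM in Tbx3-positive cells and 35.5 CPM in the others, log2 ratio -2.20, -4.29 to -0.91). In ventricular-type Tbx3-positive cells, 16 of its 18 UMIs came from 1 cell, and without that cell its level was 3.94 CPM, against 5.97 CPM in all ventricular-type others.

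The other genes of this group gave smaller ratios. Smpx, a small muscle protein of the costamere, had 372 CPM in atrial-type Tbx3-positive cells and 817 CPM in the others (log2 ratio -1.13), with a median of 3 UMIs per Tbx3-positive cell and 5 UMIs per other cell. In ventricular type it had 1038 CPM in Tbx3-positive cells and 1461 CPM in the others and a median of 5 UMIs per Tbx3-positive cell and 14 UMIs per other cell. Hopx, a homeodomain-only cofactor, had 131 CPM in atrial-type Tbx3-positive cells and 194 CPM in the others and 437 CPM in ventricular-type Tbx3-positive cells and 404 CPM in the others. Mybphl, an atrial myosin-binding protein, had 135 CPM in atrial-type Tbx3-positive cells and 197 CPM in the others and 0 UMIs in ventricular-type Tbx3-positive cells, and its log2 ratio over all cells was 2.77. Kcnj2, the main inward rectifier channel, had 0 UMIs in atrial-type Tbx3-positive cells and 4.17 CPM in the others, too few to be counted, and 5.78 CPM in ventricular-type Tbx3-positive cells and 9.85 CPM in the others.

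**Figure D3:**
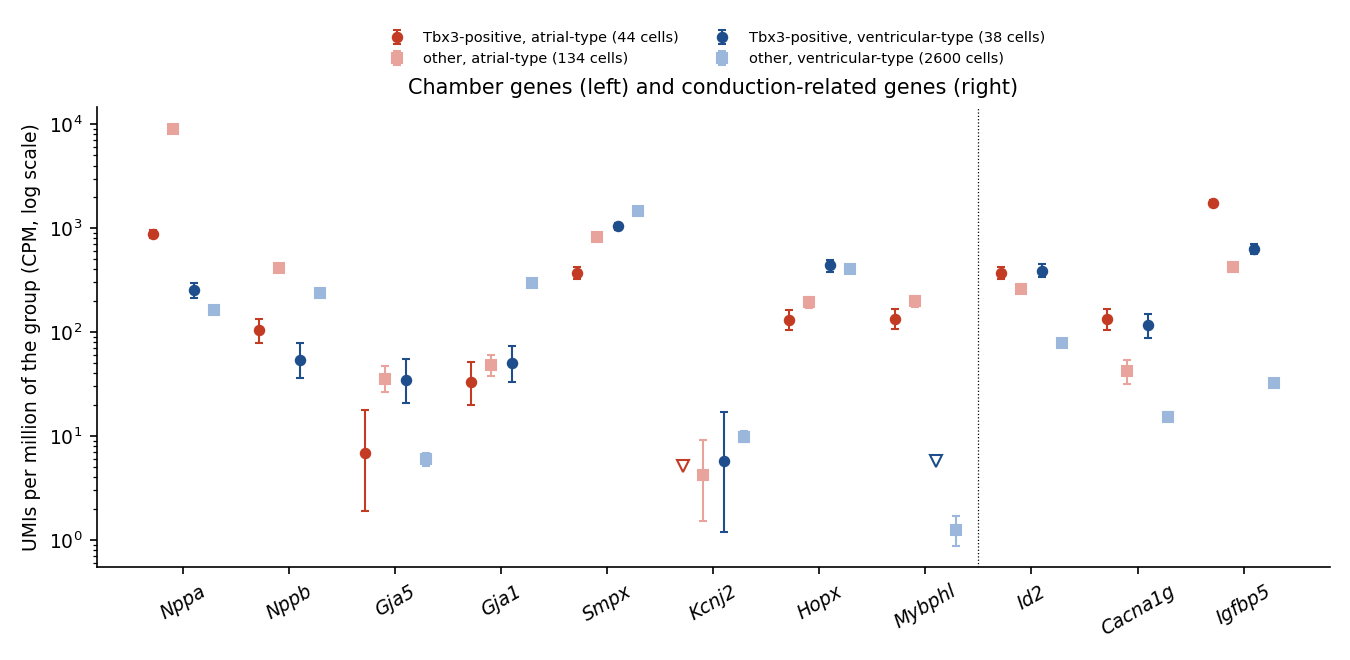
Summed levels (CPM, log axis) of 8 of the chamber genes, left of the dotted line, and of Id2, Cacna1g and Igfbp5, right of it, in Tbx3-positive and other cells of each chamber type. Error bars are exact Poisson 95% intervals for counting error, and open downward triangles stand at the 3-count floor of a group with 0 UMIs. Nppa was at 881 CPM in atrial-type Tbx3-positive cells and 9047 CPM in atrial-type others, while Igfbp5 was at 1756 CPM in Tbx3-positive cells and 427 CPM in the others.

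T-box factors bind the core letters AGGTGT, so the 250 bases before each chamber gene's start in the RefSeq promoter table were searched for them on both strands (ACACCT on the other strand). The sequences are those of RefSeq on GRCm38.p6, in which 8 of the 9 genes had an entry, and Hopx had 2. Of these 9 promoters, 1 had a match, against 3887 of 32851 mouse promoters of the same length (11.8%). The promoters of 2 of these genes are shown. Nppa had the largest difference in CPM in atrial type, and its match starts 248 bases before the gene. Gja1 had the lowest log2 ratio in ventricular type, and its promoter holds no match. The RefSeq start of Gja1 lies upstream of the gene start given above, which is that of the GENCODE annotation. Both are on the plus strand, and the matched letters are in capitals.
Nppa promoter, chr4:148000472-148000721: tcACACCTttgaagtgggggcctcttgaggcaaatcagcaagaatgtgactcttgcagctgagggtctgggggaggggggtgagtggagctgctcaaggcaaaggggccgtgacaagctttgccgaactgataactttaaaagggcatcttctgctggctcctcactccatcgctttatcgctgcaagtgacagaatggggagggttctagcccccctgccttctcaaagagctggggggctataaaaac
Gja1 promoter, chr10:56377050-56377299: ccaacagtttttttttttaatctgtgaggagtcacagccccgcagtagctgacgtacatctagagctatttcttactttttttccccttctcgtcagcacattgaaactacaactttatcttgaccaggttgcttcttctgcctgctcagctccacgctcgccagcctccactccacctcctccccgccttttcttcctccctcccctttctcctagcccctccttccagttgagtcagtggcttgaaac
A match of 6 letters is a description of the sequence and not a binding site, and 1 of 9 promoters lies near the share over all promoters.

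Of 12 genes known from the AVN and His bundle but not used by the rule, 7 were counted over all cells and 7 were higher, with a median log2 ratio of 2.50. Within atrial type 4 of 7 were higher (median 1.12), and within ventricular type 6 of 6 (median 1.99). Of these, 2, 1 and 1 passed the filter only through Tbx3-positive cells. With each cell thinned to 3000 UMIs, 6 of 6, 1 of 6 and 4 of 4 were higher. The list median stood above the median of all genes in each contrast. Cacna1g, Kcne1, Ntm and Slitrk5 are also among surface protein genes that the study picked for this region from these same libraries. The list is thus not fully independent of the data.

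Id2, an inhibitor of basic helix-loop-helix factors that is known to act in the mouse ventricular conduction system (chr12:25093799-25097140), had 389 CPM in ventricular-type Tbx3-positive cells and 78.1 CPM in the others (log2 ratio 2.32, 2.10 to 2.52), with a median of 3.5 UMIs per Tbx3-positive cell and 0 per other cell. In atrial type it had 372 CPM in Tbx3-positive cells and 261 CPM in the others (log2 ratio 0.51, 0.26 to 0.76). A UMI was found in 91.5% of Tbx3-positive cells, 33.0% of the others and 66.7% of macrophage-like cells, so for this gene those cells do not give a background. Both chamber types of Tbx3-positive cells held Id2 in most cells, with a UMI in 39 of 44 atrial-type and 36 of 38 ventricular-type members. Most atrial-type others held it too, at 100 of 134, against 802 of 2600 ventricular-type others.

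Cacna1g, the T-type calcium channel of nodal cells (chr11:94408391-94474198), had 133 CPM in atrial-type Tbx3-positive cells and 41.7 CPM in the others (log2 ratio 1.67, 1.17 to 2.19, and 0.82 after thinning). In ventricular type it had 116 CPM in Tbx3-positive cells and 15.3 CPM in the others (log2 ratio 2.92, 2.50 to 3.30). A UMI was found in 67.1% of Tbx3-positive cells and 14.2% of the others, in 29.3% of Tbx3-positive cells and 4.83% of the others after thinning, and in 0 of 78 macrophage-like cells. Its UMIs were spread over 28 of 44 atrial-type and 27 of 38 ventricular-type members, with no more than 10 in any cell. Among the others, 45 of 134 atrial-type and 344 of 2600 ventricular-type cells had a UMI.

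Other members of the list were less even. Kcne1, the beta subunit of the slow delayed rectifier, had 759 CPM in ventricular-type Tbx3-positive cells and 240 CPM in the others (log2 ratio 1.66), and 271 CPM in atrial-type Tbx3-positive cells and 174 CPM in the others. Ntm, neurotrimin, had 57.8 CPM in ventricular-type Tbx3-positive cells and 19.1 CPM in the others and 202 CPM in atrial-type Tbx3-positive cells and 117 CPM in the others. Slitrk5, a transmembrane neuronal protein, had 96.8 CPM in atrial-type Tbx3-positive cells and 44.5 CPM in the others. Msx2, a homeobox factor downstream of Bmp signaling, had 15.6 CPM in atrial-type Tbx3-positive cells and 2.09 CPM in the others (log2 ratio 2.75, 0.90 to 5.42) and 11.6 CPM in ventricular-type Tbx3-positive cells and 1.99 CPM in the others. Shox2, a homeobox factor of the sinus node, had 91.6 CPM in atrial-type Tbx3-positive cells and 32.7 CPM in the others (log2 ratio 1.49, 0.89 to 2.09) and no UMI in ventricular-type Tbx3-positive cells. Other genes of conduction tissue were at or near 0, as Cntn2 and Isl1 had 1 UMI each over the 82 cells, and Gjd3, connexin 30.2, had none in Tbx3-positive cells of any library.

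Igfbp5, a secreted insulin-like growth factor binding protein (chr1:72857932-72874884), was found in most members of both chamber types. It had 1756 CPM in atrial-type Tbx3-positive cells and 427 CPM in the others (log2 ratio 2.04, 1.89 to 2.19), with a median of 13.5 UMIs per Tbx3-positive cell and 2 UMIs per other cell. In ventricular type it had 636 CPM in Tbx3-positive cells and 32.1 CPM in the others (log2 ratio 4.31, 4.12 to 4.49), with a median of 5 UMIs per Tbx3-positive cell and 0 per other cell. At 3000 UMIs per cell, it was still found in 82.9% of Tbx3-positive cells and 8.78% of the others. In macrophage-like cells it was found in 8.97%. It had a UMI in 43 of 44 atrial-type members and 84 of 134 atrial-type others. In ventricular type it had a UMI in 31 of 38 members and 433 of 2600 others. Most atrial-type others thus also held it, at a lower level.

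The other genes with the highest ratios over all cells were rarer. Ache, acetylcholinesterase, had 20.0 CPM in Tbx3-positive cells and 0.425 CPM in the others (log2 ratio 5.54, 4.51 to 6.67), from 11 UMIs in 7 atrial-type and 11 UMIs in 8 ventricular-type cells. Gal, the neuropeptide galanin, had 192 CPM in Tbx3-positive cells and 4.87 CPM in the others (log2 ratio 5.30, 4.99 to 5.61) but was found in 19.5% of Tbx3-positive cells, and 3 atrial-type cells held 87.2% of the atrial-type UMIs. Without cells of mixed chamber share the log2 ratio of Gal was 3.81. Gcgr, the glucagon receptor, had 36 UMIs in 18 atrial-type and none in ventricular-type Tbx3-positive cells. Besides Shox2, the remaining 6 of the 10 highest, Sfrp5, Cfc1, Fcmr, Alox8, Tmem132c and Shisa6, had 8.20 to 23.7 CPM in Tbx3-positive cells and under 1 CPM in the others. Sfrp5 encodes a secreted Wnt antagonist and Cfc1 a Nodal coreceptor. Like Gcgr, Fcmr and Cfc1 had UMIs, 20 and 9, in atrial-type and none in ventricular-type Tbx3-positive cells. Atrial-type cells made up 53.7% of Tbx3-positive cells and 4.90% of the others. The part of this chamber mix in the ratios over all cells was not tested.

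The lowest ratios over all cells included genes of muscle contraction and oxygen storage. Tnni2, the fast skeletal troponin I, had 0.911 CPM in Tbx3-positive cells and 22.4 CPM in the others (log2 ratio -4.04). Mb, myoglobin, had 144 CPM in Tbx3-positive cells and 1030 CPM in the others (log2 ratio -2.84, -3.07 to -2.61). In ventricular type it had 200 CPM in Tbx3-positive cells and 1077 CPM in the others, with a median of 1 UMI per Tbx3-positive cell and 9 per other cell. In atrial type it had 93.3 CPM in Tbx3-positive cells and 95.9 CPM in the others, and 37.8 CPM in Tbx3-positive cells and 89.9 CPM in the others without the cell of most UMIs in each group, since 33 of its 54 UMIs were in 1 Tbx3-positive cell. Mt2, a metallothionein, had 10.9 CPM in Tbx3-positive cells and 84.4 CPM in the others. Kcnip2, the subunit of the transient outward potassium channel, had 1.82 CPM in Tbx3-positive cells and 14.1 CPM in the others. Adhfe1, 1700007L15Rik, Cacng6, Pxmp2 and Dcp1b had log2 ratios of -3.05 to -2.25, all with at most 5.47 CPM in Tbx3-positive cells.

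Within atrial type, the highest ratios belonged to rare transcripts. Ccdc92 and Fst, the gene of the activin and Bmp antagonist follistatin, had 6 and 5 UMIs in Tbx3-positive cells and none in the others, which is at least 4.97-fold and at least 4.14-fold higher. Tmem132c had 32.8 CPM in Tbx3-positive cells and 2.09 CPM in the others, Unc80, a subunit of the sodium leak channel complex, 19.0 CPM in Tbx3-positive cells and 1.39 CPM in the others, and Oprk1, the kappa opioid receptor, 12.1 CPM in Tbx3-positive cells and 0.695 CPM in the others. At the low end, besides Nppa, Mest had 27.7 CPM in Tbx3-positive cells and 323 CPM in the others. Angpt1, the vascular ligand angiopoietin 1, and Lad1 had no UMI in Tbx3-positive cells and 19.5 CPM each in the others, at least 3.75-fold lower.

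Within ventricular type, Mybph (7.70 CPM in Tbx3-positive cells and 0.0343 CPM in the others), Hs3st3b1 (11.6 CPM in Tbx3-positive cells and 0.103 CPM in the others) and Gabre (9.63 CPM in Tbx3-positive cells and 0.103 CPM in the others) led the high end, ahead of Ache and Gal. These 3 leading genes were rare, as 3 UMIs over the 38 Tbx3-positive cells are 5.78 CPM. Over the 2600 others 3 UMIs are 0.103 CPM, so all 3 passed the filter only through Tbx3-positive cells. At the low end, Yipf7 had no UMI in Tbx3-positive cells and 20.6 CPM in the others, 3.56-fold lower with the 0 set to 3 counts. Mt2 had 5.78 CPM in Tbx3-positive cells and 87.5 CPM in the others and Tnni2 1.93 CPM in Tbx3-positive cells and 23.1 CPM in the others. Mb followed the same direction here. Adhfe1 and 1700007L15Rik had no UMI in Tbx3-positive cells and were 2.04-fold and 1.81-fold lower with the 0 set to 3 counts.

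The 2 chamber types of Tbx3-positive cells were also set against each other, although the chamber share that split them was measured in the same cells. Of 9158 genes counted, 770 (8.41%) were at least 2-fold higher in atrial type and 952 (10.4%) at least 2-fold lower. Vsnl1, a neuronal calcium sensor, had 103 UMIs in 29 of 44 atrial-type cells and none in the 38 of ventricular type. Nr2f1, a COUP transcription factor of atrial identity, had 61 UMIs in 21 atrial-type cells and none in ventricular type, and Nr2f2, its paralog, had 49 UMIs and 1 UMI. Ryr3, a ryanodine receptor, had 45 UMIs and none, and Kcnj3, a subunit of the acetylcholine-activated potassium channel, 37 UMIs and 1. In the other direction, Col4a4, a basement membrane collagen, had no UMI in atrial type and 27 in 13 ventricular-type cells, Irx2 none and 18 in 12 cells, and Insc none and 17 in 10 cells. Lyz2, a macrophage lysozyme, had 7 UMIs in atrial-type and 119 in ventricular-type cells, and the fibroblast gene Dcn 2 and 107, of which 55 were in 1 of the 7 ventricular-type cells that held any.

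Of 38 transcription factors listed, 3 of 26 counted were higher in atrial-type Tbx3-positive cells and 0 lower (median log2 ratio 0.48), and 12 of 30 were higher and 2 lower in ventricular type (median 0.82), where 9 had passed the filter only through Tbx3-positive cells. Among those 9 were Irx1, Irx2, Irx3, Irx5 and Hand1, and of the other 21, 4 were higher and 2 lower. In atrial type 2 of the 3 higher genes, Msx2 among them, had passed only through Tbx3-positive cells, and of the other 24, 1 was higher. Over all genes counted in atrial type 8.51% were higher, the share beside which the 3 of 26 stand. Tbx5, a T-box activator required for the mouse AV conduction system, had 69.3 CPM in ventricular-type Tbx3-positive cells and 10.7 CPM in the others (log2 ratio 2.71), and 228 CPM in atrial-type Tbx3-positive cells and 152 CPM in the others. The Iroquois factors Irx3, which serves His-Purkinje conduction in the mouse, and Irx5 each had 61.6 CPM in ventricular-type Tbx3-positive cells and 8.92 and 7.48 CPM in the others. Irx1 and Irx2 had 13.5 and 34.7 CPM in ventricular-type Tbx3-positive cells, 3.91 and 8.03 CPM in the others, and no UMI in atrial-type members. Etv1, a fast-conduction factor, had 106 CPM in ventricular-type Tbx3-positive cells and 16.5 CPM in the others and 19.0 CPM in atrial-type Tbx3-positive cells and 18.8 CPM in the others. Hand1 had 23.1 CPM in ventricular-type Tbx3-positive cells and 3.16 CPM in the others. Hey2, a Notch target of compact ventricular muscle, was lower there, at 27.0 CPM in Tbx3-positive cells and 96.8 CPM in the others (log2 ratio -1.79), as was Mef2c, at 52.0 CPM in Tbx3-positive cells and 112 CPM in the others. Nkx2-5, the homeobox factor of all heart muscle, had 316 CPM in ventricular-type Tbx3-positive cells and 179 CPM in the others and 254 CPM in atrial-type Tbx3-positive cells and 243 CPM in the others.

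Genes of Bmp and Tgf-beta signaling, counted without Bmp2, were higher in 7 of 23 in atrial type (median log2 ratio 0.80) and in 13 of 21 in ventricular type, with 1 lower (median 1.27). In each contrast 7 had passed only through Tbx3-positive cells, and of those that passed through the other cells 1 of 16 and 6 of 14 were higher. Smad6 and Smad7, the inhibitory Smads that Bmp signaling induces, had 52.0 and 28.9 CPM in ventricular-type Tbx3-positive cells and 7.62 and 6.31 CPM in the others. In atrial type Smad6 and Smad7 had 58.8 and 72.6 CPM in Tbx3-positive cells, against 34.8 and 29.2 CPM in the others. Id1 and Id3, further Bmp targets, had 42.4 and 208 CPM in ventricular-type Tbx3-positive cells, against 8.65 and 32.1 CPM in the others. Bmper, an extracellular Bmp regulator, had 23.1 CPM in ventricular-type Tbx3-positive cells and 1.85 CPM in the others (log2 ratio 3.69), and the ligand Tgfb2 had 223 CPM in ventricular-type Tbx3-positive cells and 45.2 CPM in the others. Acvr2a, an activin receptor, was the gene counted as lower, at 3.85 CPM in ventricular-type Tbx3-positive cells and 12.9 CPM in the others, with a 95% interval of the log2 ratio, -4.79 to 0.12, that holds 0.

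Wnt and Notch genes were fewer. Within ventricular type 8 of 14 counted were higher and 2 lower (median log2 ratio 1.11), and within atrial type 3 of 12 were higher (median 0.15). In ventricular type 7 and in atrial type 4 had passed only through Tbx3-positive cells, Axin2 and Lef1 among them in both types. Of the rest, 4 were higher and 2 lower of 7 in ventricular type, and 1 of 8 was higher in atrial type. Axin2, a feedback target of Wnt/beta-catenin, had 11.6 CPM in ventricular-type Tbx3-positive cells and 0.652 CPM in the others (log2 ratio 4.23), and 19.0 CPM in atrial-type Tbx3-positive cells and 8.34 CPM in the others. Lef1, a transcription factor of the same pathway, had 9.63 CPM in ventricular-type Tbx3-positive cells and 2.02 CPM in the others and 20.7 CPM in atrial-type Tbx3-positive cells and 9.04 CPM in the others. The receptor Notch2 had 3.85 CPM in ventricular-type Tbx3-positive cells and 10.5 CPM in the others (log2 ratio -1.13), and its direction turned at 2 or more Tbx3 UMIs, where the log2 ratio was 0.13, and after thinning, at 0.48.

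Among further ion channels, Cacna1d, the low-threshold L-type channel of nodal cells, had 15.4 CPM in ventricular-type Tbx3-positive cells and 2.75 CPM in the others (log2 ratio 2.57), and 25.9 CPM in atrial-type Tbx3-positive cells and 24.3 CPM in the others. Cacna1h, a second T-type channel, had 35.5 CPM in Tbx3-positive cells and 12.5 CPM in the others over all cells. The pacemaker and calcium channel list, counted without Hcn4, had 1 of 8 higher in atrial and 4 of 8 in ventricular type. Of these 8, 1 in atrial type and 2 in ventricular type, Cacna1d among the latter, had passed only through Tbx3-positive cells. Of the rest, 1 of 7 was higher in atrial type and 2 of 6 in ventricular type. Fgf12, a modulator of sodium channels, had 27.7 CPM in atrial-type Tbx3-positive cells and 111 CPM in the others (log2 ratio -1.97). Of the potassium channels, Kcnk3, Kcnj5 and Kcnh2 had 80.9, 42.4 and 59.7 CPM in ventricular-type Tbx3-positive cells and 24.1, 17.1 and 27.9 CPM in the others. Abcc9, the sulfonylurea receptor of the ATP-sensitive channel, had 19.3 CPM in ventricular-type Tbx3-positive cells and 56.6 CPM in the others and was lower, with Kcnip2. Kcnj3 had 64.0 CPM in atrial-type Tbx3-positive cells and 61.2 CPM in the others (log2 ratio 0.08).

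Among connexins and junction genes, Gja5 was the one of 12 counted in atrial type and Gja1 the one of 12 counted in ventricular type, both as lower. Gjc1, the low-conductance connexin 45, had 67.4 CPM in ventricular-type Tbx3-positive cells and 40.2 CPM in the others (log2 ratio 0.76). Of the sarcoplasmic reticulum genes, 0 of 17 were counted in atrial type, and 3 were higher and 1 lower of 18 in ventricular type. Without the 2 that passed only through Tbx3-positive cells, 2 were higher and 1 lower of 16 in ventricular type. Casq1, the skeletal calsequestrin, had 376 CPM in Tbx3-positive cells and 121 CPM in the others there. The lower one was Jph1, junctophilin, with 3.85 CPM in Tbx3-positive cells and 10.5 CPM in the others (log2 ratio -1.12, -4.49 to 0.42). Pln, phospholamban, which restrains the calcium pump, had 2217 CPM in ventricular-type Tbx3-positive cells and 3321 CPM in the others, which is under 2-fold. Contractile genes had medians of -0.01 in atrial and 0.13 in ventricular type. Among them, Myl1 and Tnnt1, a light chain and a troponin T of skeletal muscle, had log2 ratios of 2.78 and 2.40 in ventricular type, and 96.3 and 501 CPM in the Tbx3-positive cells. In atrial type, Acta1, skeletal actin, had 34.6 CPM in Tbx3-positive cells and 266 CPM in the others, and Myl3, the ventricular essential light chain, 942 CPM in Tbx3-positive cells and 2497 CPM in the others.

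Receptors and their effectors had 5 of 20 higher in atrial type (median log2 ratio 0.39) and 6 of 20 in ventricular type (median 0.68), with 0 lower in either. Of these, 2 had passed the filter only through Tbx3-positive cells in atrial type and 6, Rgs6 and Gnao1 among them, in ventricular type, and of the rest, 3 of 18 were higher in atrial type and 2 of 14 in ventricular type. Rgs6, which curbs vagal signaling in the heart, had 121 CPM in atrial-type Tbx3-positive cells and 59.8 CPM in the others, and 63.6 CPM in ventricular-type Tbx3-positive cells and 9.13 CPM in the others. Gnao1, a G protein alpha subunit, had 202 CPM in atrial-type Tbx3-positive cells and 82.0 CPM in the others and 21.2 CPM in ventricular-type Tbx3-positive cells and 8.27 CPM in the others. Adora1, the adenosine A1 receptor, had 61.6 CPM in ventricular-type Tbx3-positive cells and 14.5 CPM in the others (log2 ratio 2.11). Rxfp1, the relaxin receptor, had 180 CPM in atrial-type Tbx3-positive cells and 74.4 CPM in the others and was not higher in ventricular type, at a log2 ratio of -0.45.

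Axon guidance and adhesion genes, which include neurite and cell sorting cues, were higher in 15 of 23 in ventricular type with 1 lower (median log2 ratio 1.18) and in 5 of 21 in atrial type (median 0.42). Without the genes that passed only through Tbx3-positive cells, the counts were 9 of 16 and 3 of 17. Unc5b, a netrin receptor, had 143 CPM in ventricular-type Tbx3-positive cells and 19.0 CPM in the others (log2 ratio 2.91), and 173 CPM in atrial-type Tbx3-positive cells and 110 CPM in the others. Robo1, a Slit receptor, had 125 CPM in ventricular-type Tbx3-positive cells and 13.9 CPM in the others and 19.0 CPM in atrial-type Tbx3-positive cells and 4.87 CPM in the others. The semaphorin Sema3c had 82.8 CPM in ventricular-type Tbx3-positive cells and 9.37 CPM in the others and the adhesion molecule Alcam 108 CPM in ventricular-type Tbx3-positive cells and 16.0 CPM in the others. Pcdh7, a protocadherin, was the one counted as lower, at 65.5 CPM in ventricular-type Tbx3-positive cells and 137 CPM in the others.

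Cell cycle genes gave 2 of 23 higher in atrial type and 5 higher and 2 lower of 26 in ventricular type (medians 0.50 and -0.37). In atrial type 3 and in ventricular type 2 had passed only through Tbx3-positive cells. Of the rest, 2 of 20 were higher in atrial type, and 4 were higher and 2 lower of 24 in ventricular type. Cdkn1c, the inhibitor p57, had 508 CPM in ventricular-type Tbx3-positive cells and 79.1 CPM in the others (log2 ratio 2.69), and 285 CPM in atrial-type Tbx3-positive cells and 200 CPM in the others. Cenpf, a mitotic kinetochore gene, had 65.5 CPM in ventricular-type Tbx3-positive cells and 136 CPM in the others. With at least 2 companion genes required, 5 were higher and 16 lower of 24 in ventricular type, and without cells with a doublet score of at least 0.2, 5 and 7 of 26. Cdk1 had 112 CPM in atrial-type Tbx3-positive cells and 30.6 CPM in the others, and 3 of the Tbx3-positive cells held 76.9% of the UMIs there. Energy metabolism genes had 0 of 40 counted in either direction in atrial type and 3 lower in ventricular type (medians -0.08 and -0.33). The 3 were Mb, Ckmt2 and Cox8b, with Cox8b, a cytochrome oxidase subunit of mature muscle, at 295 CPM in ventricular-type Tbx3-positive cells and 771 CPM in the others.

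Extracellular matrix and growth factor binding genes were higher in 15 of 22 in ventricular type, with 0 lower (median log2 ratio 1.65). Without the 2 that passed only through Tbx3-positive cells, 13 of 20 were higher. This contrast is the one in which fibroblast markers summed to 1075 CPM in Tbx3-positive cells and 370 CPM in the others. Without cells that had at least 3 markers of another cell type (the erythroid list aside) 11 were higher and 1 lower of 20, and with at least 2 companion genes required 8 were higher and 1 lower of 21. Igfbp5 led the list. Sparc, a matrix glycoprotein, had 2176 CPM in ventricular-type Tbx3-positive cells and 490 CPM in the others and Vcan, versican, 196 CPM in ventricular-type Tbx3-positive cells and 40.3 CPM in the others. Col3a1, a fibrillar collagen of fibroblasts, had 135 CPM in ventricular-type Tbx3-positive cells and 73.9 CPM in the others, and its log2 ratio turned to -0.73 with at least 2 companion genes required. In atrial type 3 were higher and 6 lower of 22. Igfbp4, a second binding protein, had 102 CPM in Tbx3-positive cells and 27.8 CPM in the others there and 67.4 CPM in ventricular-type Tbx3-positive cells and 21.5 CPM in the others, and Col3a1 had 8.64 CPM in Tbx3-positive cells and 57.0 CPM in the others and Dcn a log2 ratio of -3.02.

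**Figure D4:**
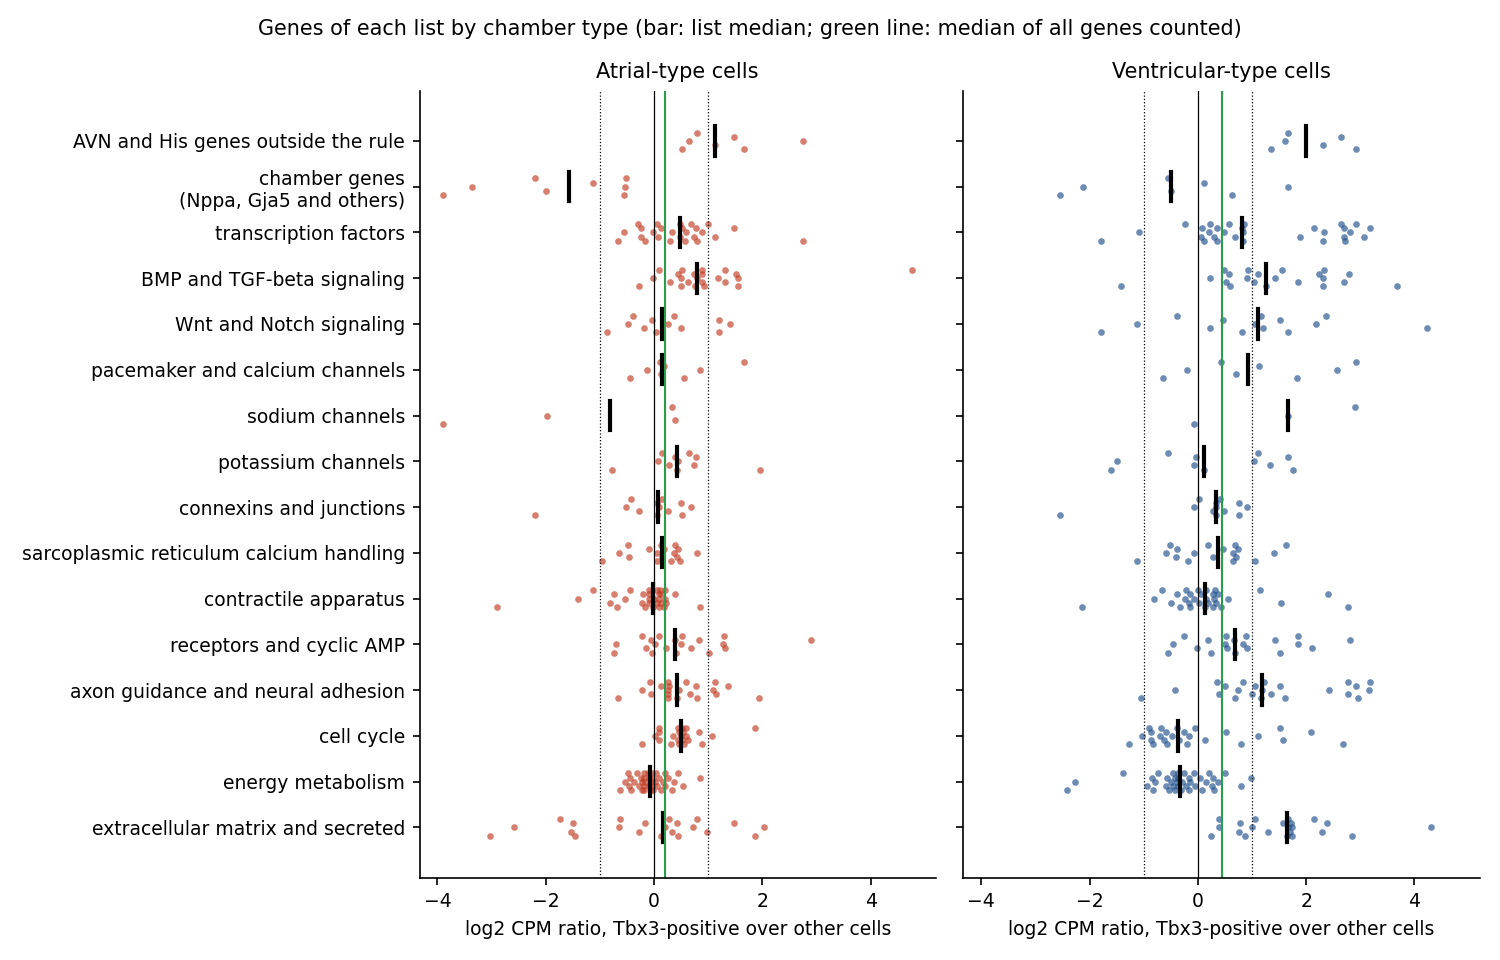
Log2 CPM ratio of Tbx3-positive over other cells (horizontal axis) for the counted genes of 16 lists, within atrial type and within ventricular type. Each dot is a gene, black bars are list medians, the green line is the median of all genes counted (0.20 and 0.45) and dotted lines mark 2-fold. Genes that passed only through Tbx3-positive cells are included. The median of the AVN and His genes outside the rule lay right of the green line, and that of the chamber genes left of it, in both panels. Some of these AVN and His genes are also surface genes that the study picked from these libraries.

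A list of 52 surface protein genes that the study picked for the AVN and His region from these same libraries, taken without rule genes, is not independent of the data. All 52 were counted, 4 of them higher in atrial type (median log2 ratio 0.28), 18 in ventricular type (median 0.72) and 24 over all cells (median 0.92), with 0 lower in any.

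Whether the genes set apart in the AVN/His region were also set apart elsewhere was tested by applying the same rule to every library. It found 125 of 3234 muscle-score cells in the SAN region (3.87%), all of atrial type, 12 of 4297 in the left ventricular region (0.279%), all of ventricular type, and 1 of 2878 in the right ventricular region. Counts were summed over Tbx3-positive and over other muscle-score cells per library, and edgeR's quasi-likelihood test was run with the library as a block. The sums were not split by chamber type. In the AVN/His region 53.7% of Tbx3-positive cells and 4.90% of the others were of atrial type. The part of this chamber mix in the calls was not tested. The 4 pairs of sums leave 3 residual degrees of freedom, and the sum of the right ventricular region rests on 1 cell with 4571 UMIs. Mitochondrial UMIs made up 27.2% of that cell, against a median of 17.6% in the other muscle-score cells of its region. Of 12097 genes tested, 435 (3.6%) were higher and 141 (1.17%) lower in Tbx3-positive cells at a Benjamini-Hochberg adjusted p under 0.05, rule genes left out. Without the AVN/His library, the numbers were 162 (1.36%) and 13 (0.109%) of 11912. Of these, 152 of the higher genes were also called with 4 libraries (93.8% of the 162 and 34.9% of the 435), and 12 of the lower (92.3% of the 13 and 8.51% of the 141). Every library of the smaller fit is also in the larger one, so this overlap is not independent support. Without the right ventricular region 177 were higher and 79 lower.

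Igfbp5 had 2582 CPM in Tbx3-positive cells of the SAN region and 182 CPM in the others, 1226 CPM in Tbx3-positive and 50.7 CPM in other cells of the AVN/His region, 262 CPM in Tbx3-positive and 18.3 CPM in other cells of the left ventricular region and 1969 CPM in Tbx3-positive and 22.3 CPM in other cells of the right, where it rests on 9 UMIs. It was higher in 4 of 4 libraries, the right ventricular one by a lone cell (log2 fold change 3.90 ± 0.44 SE, edgeR adjusted p = 6.49e-16). Without the AVN/His library the change was 3.80 ± 0.73 (adjusted p = 9.13e-05). Cacna1g had 48.2 CPM in Tbx3-positive and 7.69 CPM in other cells of the SAN region, 125 CPM in Tbx3-positive and 16.6 CPM in other cells of the AVN/His region, 67.4 CPM in Tbx3-positive and 7.47 CPM in other cells of the left ventricular region and 438 CPM in Tbx3-positive and 10.7 CPM in other cells of the right, the last from 2 UMIs. Its change was 2.59 ± 0.28 (edgeR adjusted p = 2.44e-17), and 2.67 ± 0.47 without the AVN/His library (adjusted p = 1.05e-05). Both genes were thus higher in Tbx3-positive cells of the SAN, AVN/His and left ventricular regions, and the right ventricular values rest on 1 cell.

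Id2 had 220 CPM in Tbx3-positive and 108 CPM in other cells of the SAN region, 380 CPM in Tbx3-positive and 86.7 CPM in other cells of the AVN/His region and 195 CPM in Tbx3-positive and 21.0 CPM in other cells of the left ventricular region, and rose by 1.74 ± 0.30 over 4 libraries (edgeR adjusted p = 1.22e-06, and 0.0251 without the AVN/His library). Unc5b had 140, 158 and 225 CPM in Tbx3-positive cells of the same libraries and 42.6, 23.3 and 8.53 CPM in the others (2.57 ± 0.27, edgeR adjusted p = 4.72e-18). The level of this netrin receptor in Tbx3-positive cells stood between 140 and 225 CPM in these 3 regions. Other genes were high in 1 or 2 regions. Shox2 had 583 CPM in Tbx3-positive and 38.3 CPM in other cells of the SAN region, 48.3 CPM in Tbx3-positive and 1.83 CPM in other cells of the AVN/His region and no UMI in Tbx3-positive cells of the ventricular regions (3.98 ± 0.36, edgeR adjusted p = 1.81e-24). Gal had 0.742 CPM in Tbx3-positive and 0.462 CPM in other cells of the SAN region, against the 192 CPM in Tbx3-positive and 4.87 CPM in other cells of the AVN/His region, so its fold change of 4.30 ± 0.44 (edgeR adjusted p = 3.61e-19) rests on that library, without which it was too low to be tested. Pcdh17, a protocadherin, had 108 CPM in Tbx3-positive and 5.90 CPM in other cells of the SAN region, 7.29 CPM in Tbx3-positive and 1.18 CPM in other cells of the AVN/His region and 135 CPM in Tbx3-positive and 0.933 CPM in other cells of the left ventricular region, and was the gene with the lowest adjusted p (4.23 ± 0.34, edgeR adjusted p = 9.96e-32). Kdr, an endothelial receptor gene, had 52.8 CPM in Tbx3-positive and 7.03 CPM in other cells of the AVN/His region and was also called (2.98 ± 0.29, edgeR adjusted p = 6.45e-21). In ventricular-type Tbx3-positive cells of that region, 21 of its 22 UMIs came from 1 cell, while in atrial type it was spread over 19 of 44 cells, at 62.2 CPM against 43.8 CPM in the others. In the left ventricular region, the 8 endothelial markers, Kdr among them, summed to 1063 CPM in the 12 Tbx3-positive cells and 24.1 CPM in the others. The part of endothelial transcripts in the values of Pcdh17, Unc5b and Kdr was not tested.

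Among genes that fell, Gja1 had 26.0 CPM in Tbx3-positive and 257 CPM in other cells of the SAN region, 41.0 CPM in Tbx3-positive and 285 CPM in other cells of the AVN/His region, 82.3 CPM in Tbx3-positive and 314 CPM in other cells of the left ventricular region and 0 UMIs in the lone Tbx3-positive cell of the right, a count too small to set against the 403 CPM of the others. Its log2 fold change was -3.15 ± 0.38 (edgeR adjusted p = 5.48e-14), and -3.14 ± 0.66 without the AVN/His library (adjusted p = 0.000506). Nppb had 118, 80.2 and 67.4 CPM in Tbx3-positive cells of the SAN, AVN/His and left ventricular regions and 818, 246 and 294 CPM in the others (-2.59 ± 0.39, edgeR adjusted p = 1.01e-08, and 0.00528 without the AVN/His library). These 2 chamber genes were lower in Tbx3-positive cells of each of the 3 libraries that had more than 1 such cell. Nppa did not pass (log2 fold change -1.60 ± 0.64, edgeR adjusted p = 0.154, but -1.36 ± 0.34 and 0.0492 without the right ventricular library), and neither did Gja5 (-0.57, adjusted p = 0.471). Smpx (adjusted p = 0.00725), Kcnj2 (adjusted p = 0.00622) and Hopx (adjusted p = 0.00214) passed edgeR's test with 4 libraries and missed it without the AVN/His library, at 0.394, 0.621 and 0.154. The lowest p values among genes that fell belonged to Gja1, Bmp10, Angpt1, Lad1 and Abcc9. Bmp10, a Bmp ligand of trabecular muscle, had 26.0 CPM in Tbx3-positive and 298 CPM in other cells of the SAN region and 0.911 CPM in Tbx3-positive and 5.46 CPM in other cells of the AVN/His region (edgeR adjusted p = 2.46e-12, and 0.246 without the SAN library), and Angpt1 likewise missed the threshold without the SAN library (adjusted p = 0.1).

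**Figure D5:**
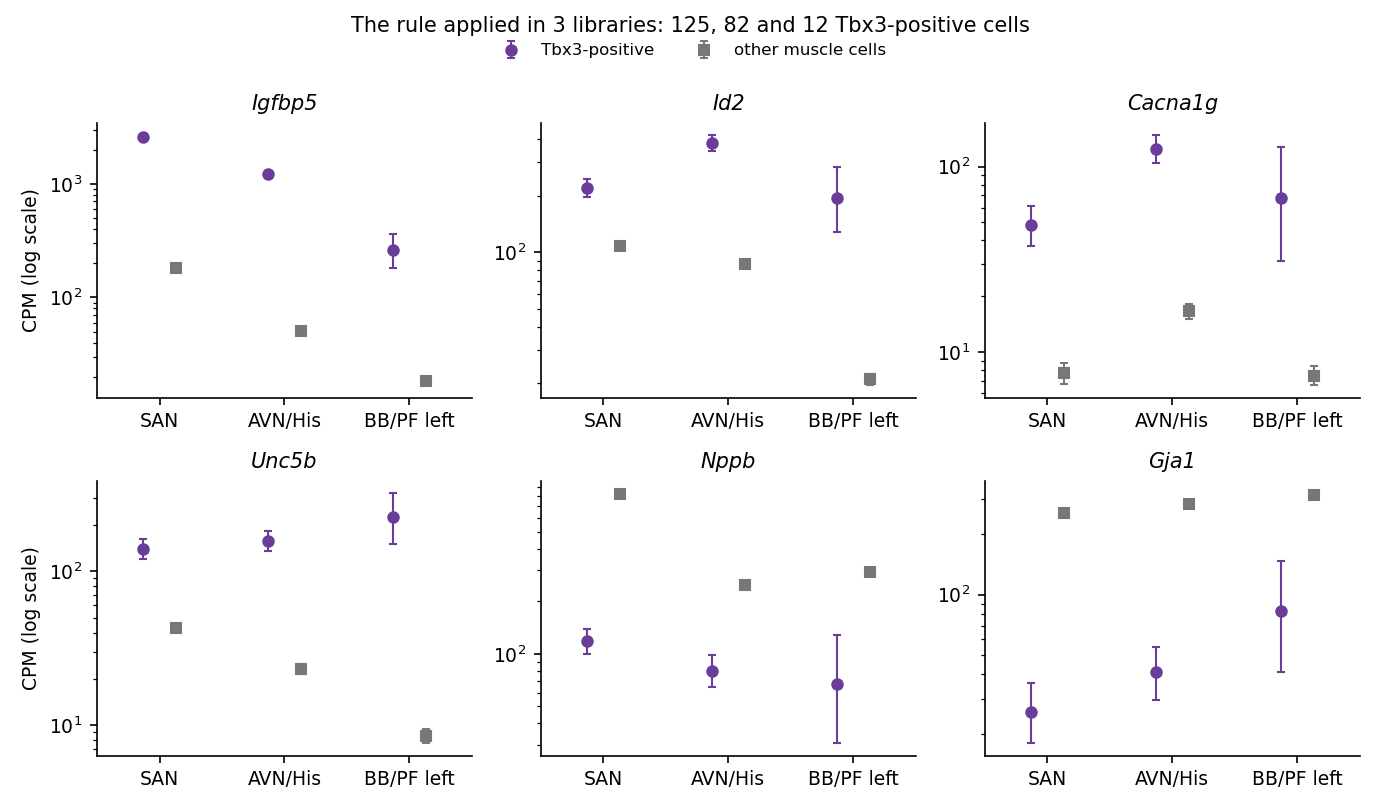
Summed levels (CPM, log axis) of Igfbp5, Id2, Cacna1g, Unc5b, Nppb and Gja1 in Tbx3-positive and other muscle-score cells of 3 libraries, with 125, 82 and 12 Tbx3-positive cells in the SAN, AVN/His and left ventricular regions. Error bars are exact Poisson 95% intervals for counting error. The first 4 genes were higher and the last 2 lower in Tbx3-positive cells of each library shown.

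By list, the 4-library test gave 6 higher and 0 lower of 9 AVN and His genes outside the rule (Cacna1g, Id2, Isl1, Msx2, Ntm and Shox2) and 0 higher and 5 lower of 9 chamber genes. Cacna1g and Ntm are also among the surface genes that the study picked from these libraries. Isl1, a homeobox factor of the sinus node, had 0.911 CPM in Tbx3-positive cells of the AVN/His region and 1.54 CPM in the others, against 37.9 CPM in Tbx3-positive cells of the SAN region and 1.02 CPM in the others. Without the AVN/His library, the higher ones were Cacna1g, Id2 and Ntm of 6 tested, and 2 of 9 chamber genes were lower. Transcription factors had 13 higher and 2 lower of 38, of which Id1, Id2 and Id3 were the genes called higher without the AVN/His library. Bmp and Tgf-beta genes had 8 higher and 2 lower of 27, and Smad6, the inhibitory Smad, rose by 2.02 ± 0.30 (edgeR adjusted p = 4.66e-09, and 0.0291 without the AVN/His library). Axon guidance genes had 10 higher and 1 lower of 30, matrix genes 7 higher and 1 lower of 29 and receptors 7 higher of 26. Some of the genes in these 3 lists, such as Efnb2 and Col18a1, are also made by vessels. Endothelial markers summed to 1063 CPM in the 12 Tbx3-positive cells of the left ventricular region and 24.1 CPM in the others, and to 151 CPM in Tbx3-positive cells of the SAN region and 93.8 CPM in the others, and Efnb2 had 127 CPM in those 12 left ventricular cells and 1.53 CPM in the others. Fibroblast markers summed to 1263 CPM in Tbx3-positive cells of the SAN region and 636 CPM in the others. The part of these transcripts in the 4-library calls was not tested gene by gene. Sarcoplasmic reticulum genes had 0 of 18 called, contractile genes 1 higher and 3 lower of 32 and energy genes 0 higher and 4 lower of 40.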

How the data were processed

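Single-cell RNA was measured in 4 libraries of E16.5 CD1 mouse heart, 1 per dissected region. The authors mapped reads to mm10 with Cell Ranger at default parameters (version and annotation not given in the sources used here), and the deposited matrices hold raw UMI counts of 27998 genes per barcode, with no normalization. Barcodes with at least 500 genes were kept here. The study's methods state a wider filter on genes and UMIs. Doublets were kept. Scrublet (scanpy 1.11.5) called 101 barcodes of the AVN/His library by its automatic limit, and 148 had a score of at least 0.2. Macrophage-like cells had UMIs of at least 3 of 6 macrophage markers and a muscle score under 1.5.

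Counts were summed over cells and scaled to CPM. Intervals are exact Poisson for levels, exact conditional binomial for ratios and Clopper-Pearson for shares, at 95%, and cover counting error only. The ratio step, tested on simulated counts of 8379 genes for the comparison over all cells, recovered 97% of 4-fold changes and put 2.09% of unchanged genes past 2-fold. The simulated sums held counting error only and no variation between cells, so 2.09% is not an error rate for these data. A group at 0 was set to 3 counts for a fold value, which leaves out the counting error of the other group. The 4-library test used edgeR 4.0.16 (TMM, filterByExpr, quasi-likelihood, library block) in R 4.3.3 with limma 3.58.1, and DESeq2 1.42.0 as an alternative. On simulated counts it recovered 12% of 2-fold and 79% of 4-fold changes over 12109 genes. The labels do not say whether the libraries came from separate animals, and p-values therefore reflect only how much these 4 libraries vary. Figures were drawn with matplotlib 3.10.9, and other steps ran in Python 3.11.15 with numpy 2.4.6, scipy 1.17.1 and pandas 2.3.3.

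The members and the gene lists were chosen with earlier results of these data known. Named genes were every rule gene, the 10 highest and 10 lowest ratios over all cells, the 5 highest and 5 lowest within each chamber type, the 3 highest and 2 lowest of each list, and the 5 lowest p in each direction over 4 libraries. Mitochondrial, ribosomal protein, hemoglobin and chamber share genes were left out of the ranking. Not every gene that met this rule is given, and the other members of lists, the genes of the atrial against ventricular comparison and the counts per cell were chosen after their values were seen. Alternatives changed the limits of the rule, doublets, depth, filters, scaling, the chamber limit, the libraries and the test. Centering, totals without mitochondrial UMIs, the filter with equal weight, leaving out cells of mixed chamber share and the version without the erythroid list were chosen after seeing the data. Some genes of the lists are not reported here, although list counts and medians include them. Promoter sequences are from RefSeq, GRCm38.p6.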

Additional observations from a re-analysis of the deposited data

Results flagged for a closer look

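Tbx3 together with a companion gene was also present outside the muscle cells compared above. Of 2829 barcodes of the AVN/His library below the muscle score, 111 had both (3.92%, exact binomial 95% interval 3.24 to 4.71%), at a median muscle score of 0.206. Their companion was mostly Rspo3, in 68, while Bmp2 was found in 31, Tbx2 in 29, Cpne5 and Cacna2d2 in 3 each and Hcn4 in 0. At least 3 fibroblast markers were found in 88.3% of the 111 and 80.2% of the remaining barcodes, and at least 3 valve mesenchyme markers in 51.4% and 37.0%. Median depth was 7899 and 6887.5 UMIs. The macrophage-like cells of the library had Tbx3 in 0 of 78, which allows a share of up to 4.62% (exact binomial), above the 3.92% here. At least 3 fibroblast markers were found in 21.8% of these macrophage-like cells. The part of free RNA in the 111 barcodes was not tested.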

How the results depend on the processing

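The 82 cells became 32 with at least 2 Tbx3 UMIs and 41 without cells that held 3 markers of another type. The total of genes at least 2-fold apart over all cells, 1354, was 2198 with at least 2 Tbx3 UMIs, 801 after thinning, 613 at a 25% filter, 3370 with a filter of 10 UMIs only and 867 after centering. The atrial-type total, 912, was 2094 with at least 2 Tbx3 UMIs, 1588 without cells that held 3 markers of another type and 299 at the 25% filter. The ventricular-type total, 1936, was 2912 without such cells, 852 at the 25% filter and 4055 with 10 UMIs only. The 576 genes called over 4 libraries became 178 by DESeq2's Wald test, 65 with no library block, 205 with at least 2 Tbx3 UMIs, 215 without cells of 3 other-type markers, and 175 to 620 when 1 library was left out, the fewest without AVN/His (256 without the right ventricular region). Of the ratios counted as 2-fold apart, directions turned for Notch2 in ventricular type (0.13 with at least 2 Tbx3 UMIs, 0.48 after thinning), Notch2 over all cells (0.59 after thinning) and Alox8 in atrial type (-0.0912 without cells of 3 other-type markers). The cause was not tested. Of the ratios of named genes across alternatives, 4966 stayed within the spread, 616 moved and 4 of those counted as 2-fold apart reversed. Ratios that were not counted changed sign in 196 cases, such as Nppa in ventricular type (0.63, and -2.05 with at least 2 Tbx3 UMIs) and Col3a1 in ventricular type (0.88, and -0.73 with at least 2 companion genes). Of the 4-library fold changes 89 kept their call and 16 lost it. The rare Tbx3 UMIs limit membership, since most members had 1.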
